A study of Saccharomyces cerevisiae with 24 samples.

Results

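The genes described here build, lengthen, desaturate and activate the fatty acids of baker's yeast, Saccharomyces cerevisiae. They were taken by name, as genes of this pathway, with earlier results of these data known, and the choice used no threshold on a measured value: ACC1 (YNR016C), FAS1 (YKL182W), FAS2 (YPL231W), OLE1 (YGL055W), ELO1 (YJL196C), ELO2 (YCR034W), ELO3 (YLR372W), FAA1 (YOR317W), FAA4 (YMR246W) and MGA2 (YIR033W). These are 10 of the 6814 genes with read counts, and all 10 were found and tested in every comparison. RNA was sequenced from 24 yeast libraries of the GA74-1A background, 3 for each of 8 groups. In all of them the chromosomal PSD1 and PSD2 genes were deleted and a Psd1 construct was integrated, per the labels. The LG strain carried Psd1-LGS/AAA, in which the motif where the enzyme cuts itself is changed, and the WT strain carried Psd1-3XFLAG, a tagged enzyme that the labels call functional. Psd1 is the mitochondrial phosphatidylserine decarboxylase, which makes phosphatidylethanolamine. The tagged WT strain is thus a rescued double deletion and not an unmodified yeast, and each strain is, as far as the labels say, 1 construct.

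Each strain was grown to an OD600 between 0.5 and 0.7 in YPD, a rich glucose medium, with 1 of 3 supplements or none. LGE and WTE had 2 mM ethanolamine, LGC and WTC had 2 mM choline, and LGD and WTD had plain medium. LGL and WTL had 0.5 mM lyso-phosphatidylethanolamine (lyso-PE) together with 1% of the detergent tergitol, and tergitol alone is not among the groups, so the 2 agents cannot be told apart. Yeast can turn ethanolamine or lyso-PE into phosphatidylethanolamine by routes that bypass Psd1, and it uses choline for phosphatidylcholine. Since the counts come from whole cultures, fewer expressing cells and less RNA per cell cannot be told apart.

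As background, acetyl-CoA carboxylase, encoded by ACC1, makes malonyl-CoA, from which the fatty acid synthase of FAS1 and FAS2 builds saturated chains. Ole1, the only fatty acid desaturase of this yeast, puts a double bond into these chains in the endoplasmic reticulum. Its transcription depends on Mga2 and Spt23, which sit in that membrane and are released from it when the lipids are short of unsaturated chains. ELO1 encodes the elongase for medium-length chains, and ELO2 and ELO3 encode the elongases of the very long chains found in sphingolipids. Faa1 and Faa4 are the main acyl-CoA synthetases for fatty acids taken up from outside. Many genes of phospholipid and fatty acid synthesis carry the inositol-sensitive element UASINO, to which the activators Ino2 and Ino4 bind.

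The promoters were searched on both strands for the UASINO core CATGTG and for the low-oxygen response element of OLE1, ACTCAACAA, in the 800 bases before each start codon. The core was present in 7 of the 10 genes and in 21.3% of the 5886 promoters searched. Its longer form CATGTGAA, which by its letters also holds the core, was present in 5 of the 10 genes (ACC1, FAS1, FAS2, ELO2 and FAA1) and in 2.09% of all promoters. The low-oxygen element was present in OLE1 alone among the 10 and in 0.832% of all promoters. The 30 bases around the site are shown for the 5 genes with the longer form and for the low-oxygen element of OLE1, because these are the matches found in the smallest shares of all promoters. They come from the R64 reference genome of RefSeq, in which all 10 genes have the same start and end as in the deposited tables. Capitals mark the match (CACATG is the core on the other strand), and all run 5′ to 3′ on the strand of the gene. A match is a stretch of letters and no evidence of binding.
ACC1, chrXIV:662073-662102, minus strand: cgttaaaatcttCACATGgcccggccgcgc
FAS1, chrXI:99955-99984, plus strand: ggccaaaaacttCACATGccgcccagccaa
FAS2, chrXVI:108408-108437, plus strand: ctcccgcgttttCACATGctacctcattcg
ELO2, chrIII:190413-190442, plus strand: tttgtacgtattCACATGtcctggcgtgcg
FAA1, chrXV:908932-908961, plus strand: catgatctccgcCATGTGaatatttatgca
OLE1, chrVII:398275-398304, plus strand: gacgttgaacACTCAACAAaccttatctag
These sites lie 716, 704, 232, 167, 399 and 343 bases before the start codons of ACC1, FAS1, FAS2, ELO2, FAA1 and OLE1, in that order. The ELO1, ELO3 and FAA4 windows held none of the 3 letter strings. In the edgeR fits described below, each gene with the longer form was called in fewer comparisons than each gene without it. ACC1 and FAS2 hold it and were called in none of those 13 comparisons, while ELO1, ELO3 and FAA4 lack it and were each called in several. This order did not hold in the authors' deposited calls. There FAS2, with the form, was called in LGL vs LGD, WTE vs WTD and WTL vs WTD. MGA2, without it, was called there only in WTE vs WTD and WTC vs WTD. Whether the form bears on the calls was not tested.

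Library totals ran from 16044470 to 20946936 counts, and a gene of the 10 had between 1323 counts (MGA2) and 45367 counts (FAS2) in a library. The 10 genes together took 0.5765% to 1.024% of a library's counts. The integrated PSD1 averaged 549.8 ± 131 CPM (counts scaled to TMM-adjusted library totals) in LGD libraries, against 862.3 ± 26.7 CPM in WTD libraries (SD, n = 3), with a log2 fold change of -0.67 ± 0.18 (SE) and an adjusted p of 0.0257, a call lost in 5 of 6 fits that each left out 1 library (adjusted p up to 0.0941 without LGD replicate 2). Counts per gene say nothing of the motif itself. Replicates 1 and 2 of a group nearly coincided: across the 80 gene-by-group values their median distance was 0.0346 on the log2 CPM scale. Replicate 3 lay a median of 0.302 from their mean, and it was the farther one in 77 of the 80 values. A fit without replicate 3 of a group thus leaves only the nearly coinciding replicates 1 and 2 there. Calls gained in such a fit are therefore no added support, and they are given below only to show how the counts move. A chi-square of the counts is near 1 per gene where sampling alone separates libraries. It was 2.65 to 17.2 between replicates 1 and 2 over the 8 groups and 86.4 to 316.0 between replicates 1 and 3. Replicates 1 and 2 were counted as separate samples, but a value above 1 does not show that they are independent. Nothing in the labels says whether the replicates are separate cultures, so the p-values measure the spread between these libraries, which may be partly technical. With replicates 1 and 2 summed into 1 library, 0 of the 10 genes were called in each of the 13 comparisons, and 0, 0 and 96 of all genes were called in LGL vs LGD, LGC vs WTC and LGD vs WTD. Below, "called" means an adjusted p under 0.05 in edgeR's quasi-likelihood test with Benjamini-Hochberg adjustment over all genes tested. Each level is a mean ± SD over 3 libraries in CPM, and each change is a log2 fold change ± SE.

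Per length of transcript, OLE1 was the most abundant of the 10, with a median of 667.1 FPKM (fragments scaled to transcript length and library total) over the 24 libraries. ELO3 followed with 383.8, FAS2 with 283.5, FAS1 with 251.5, FAA4 with 248.8, ELO2 with 236.9 and ELO1 with 218.7 FPKM. ACC1 had 176.9 and FAA1 174.6 FPKM, and MGA2, the only regulator in the set, had 33.61 FPKM. OLE1 also varied most on the CPM scale, with its highest library (LGD replicate 1) at 4.49 times its lowest (WTE replicate 1). ELO3 spanned 3.84 times, ELO2 3.28, FAA4 3.26, FAA1 3.18, ELO1 3.14, FAS1 2.6, FAS2 2.2, ACC1 2.16 and MGA2 1.67 times.

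**Figure D1:**
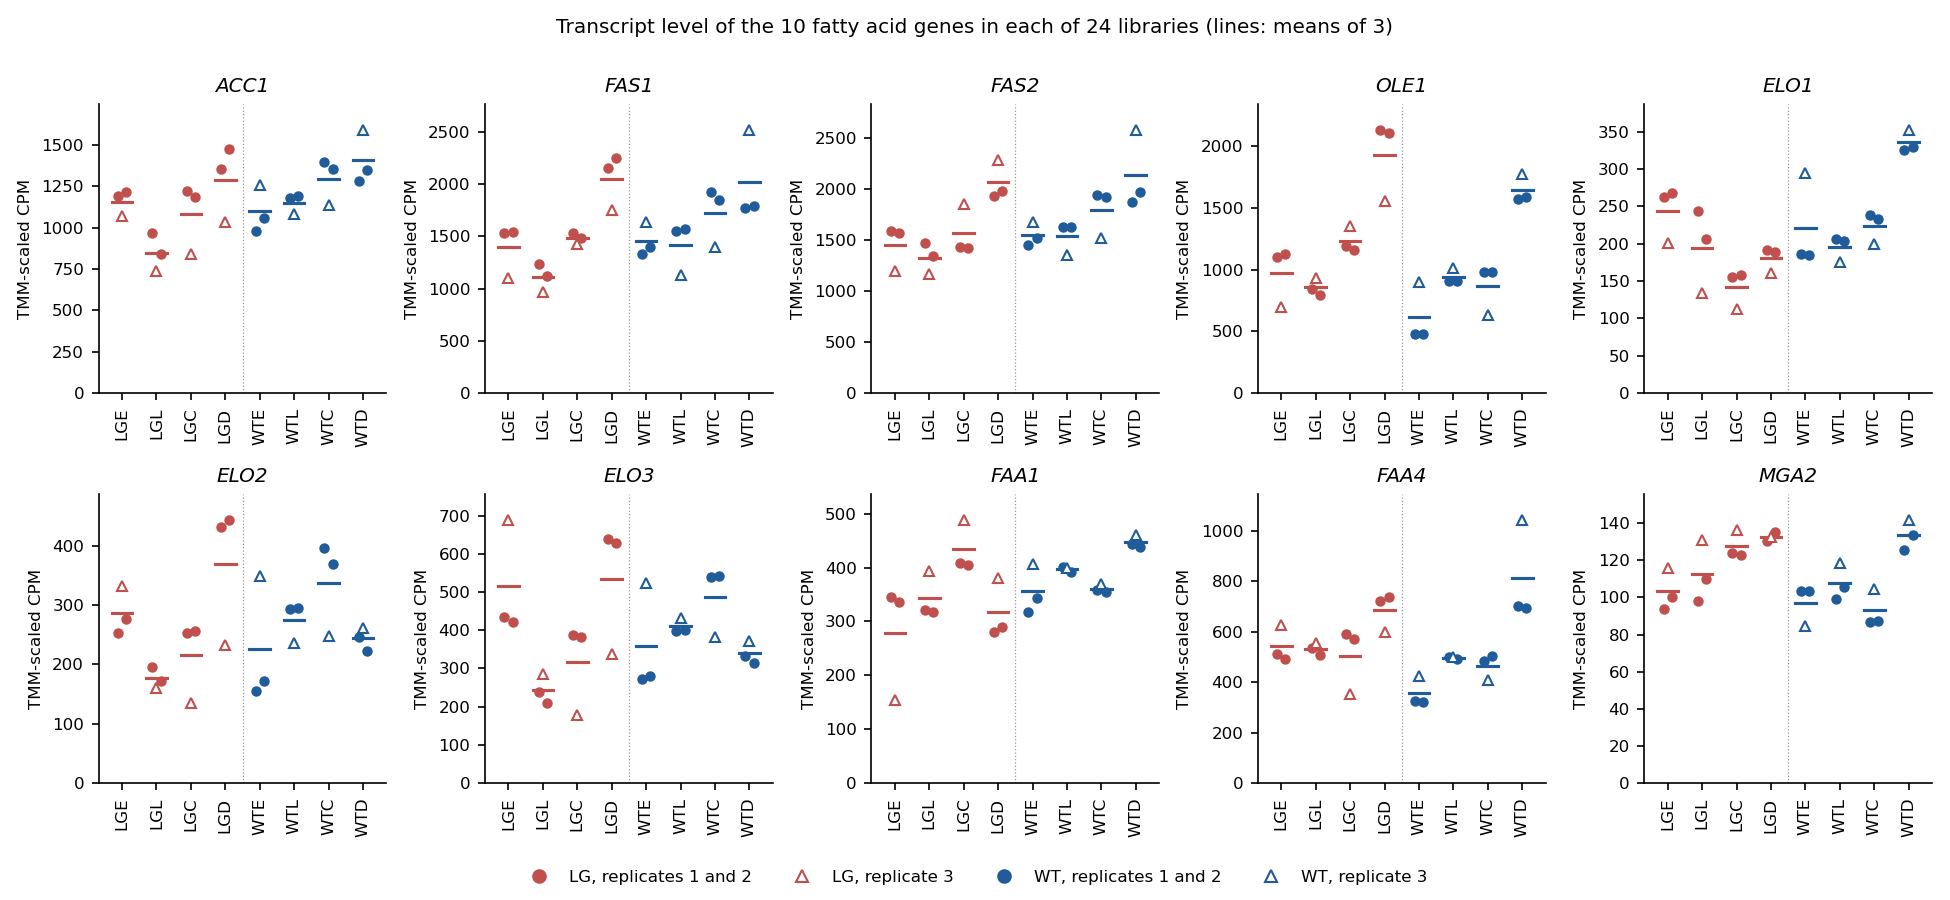
TMM-scaled CPM of each gene in every library (y axis, from 0) for the 4 LG groups, left of the dotted line, and the 4 WT groups, right of it. Filled circles are replicates 1 and 2, open triangles replicate 3 and horizontal lines group means; OLE1 stands above 1550 CPM in all 6 plain-medium libraries and at or below 1355 CPM in all 18 supplemented ones.

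OLE1 was the gene most often lower with a supplement, in 4 of 6 comparisons, and ELO1 the one most often called between strains, in 2 of 4. In LG, lyso-PE with tergitol gave 4 of 10 genes called in LGL vs LGD, all lower (OLE1, FAS1, ELO2 and ELO3), where 13.3% of all genes tested were called. The median change of the 10 was -0.62, against 0.01 over all genes. In LGE vs LGD, 0 of 10 were called (0.225% of all genes), with 5 at an unadjusted p under 0.05 and 1 called by DESeq2, which called 2.84% of all genes. In LGC vs LGD, 0 of 10 were called (0.0% of all genes), with 3 at an unadjusted p under 0.05 and 2 called by DESeq2, against 5.37% of all genes. With the replicate number as a block, used because same-numbered libraries of LGC and LGD deviated together, 8 of 10 were called there and 24.6% of all genes: OLE1, FAS1, FAS2, ELO1, ELO2, ELO3 and FAA4 lower and FAA1 higher. The labels name no batch, and the block was picked by how these same libraries deviate. In LGL vs LGD, where they did not deviate together, the block gave 0 of 10 and 0.0% of all genes. The 4 calls of LGL vs LGD became 0 without LGD replicate 1, LGD replicate 2, LGL replicate 1 or LGL replicate 2, and 7 without LGD replicate 3, where ACC1, FAS2 and FAA4 joined as lower and 33.2% of all genes were called.

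In WT, ethanolamine gave 3 of 10 genes called in WTE vs WTD, all lower (OLE1, FAA4 and MGA2), where 22.6% of all genes were called. With the replicate block, picked because same-numbered libraries deviated together here too, 7 were called, all lower, and 33.6% of all genes. ELO1, FAS1, FAS2 and FAA1 joined. Lyso-PE with tergitol gave 3 lower in WTL vs WTD (OLE1, ELO1 and FAA4), where 12.7% of all genes were called. Choline gave 4 lower (OLE1, ELO1, FAA4 and MGA2) and 1 higher (ELO3) in WTC vs WTD, where 19.1% of all genes were called. The median change of the 10 was -0.44 in WTE, -0.39 in WTL and -0.26 in WTC, against 0.03, 0.02 and 0.01 over all genes. The count for WTE vs WTD ran from 2 (without WTD replicate 2 or WTD replicate 3, with 10.7% and 16.4% of all genes called) to 10 (without WTE replicate 3, with 43.1%). That for WTL vs WTD was 1 without replicate 1 or 2 of either group (1.6% to 4.72% of all genes) and 5 without WTL replicate 3 (29.1%), where MGA2 joined as lower and ELO2 as higher. That for WTC vs WTD was 2 without replicate 1 or 2 of either group (6.51% to 8.22% of all genes) and 7 without WTC replicate 3 (30.6%), where FAA1 joined as lower and ELO2 as higher. In WTL vs WTD and WTC vs WTD same-numbered libraries did not deviate together, and there the block gave 0 of 10 (0.0163% and 0.946% of all genes). The 3 comparisons of a strain share its plain-medium libraries and are not independent of one another.

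**Figure D2:**
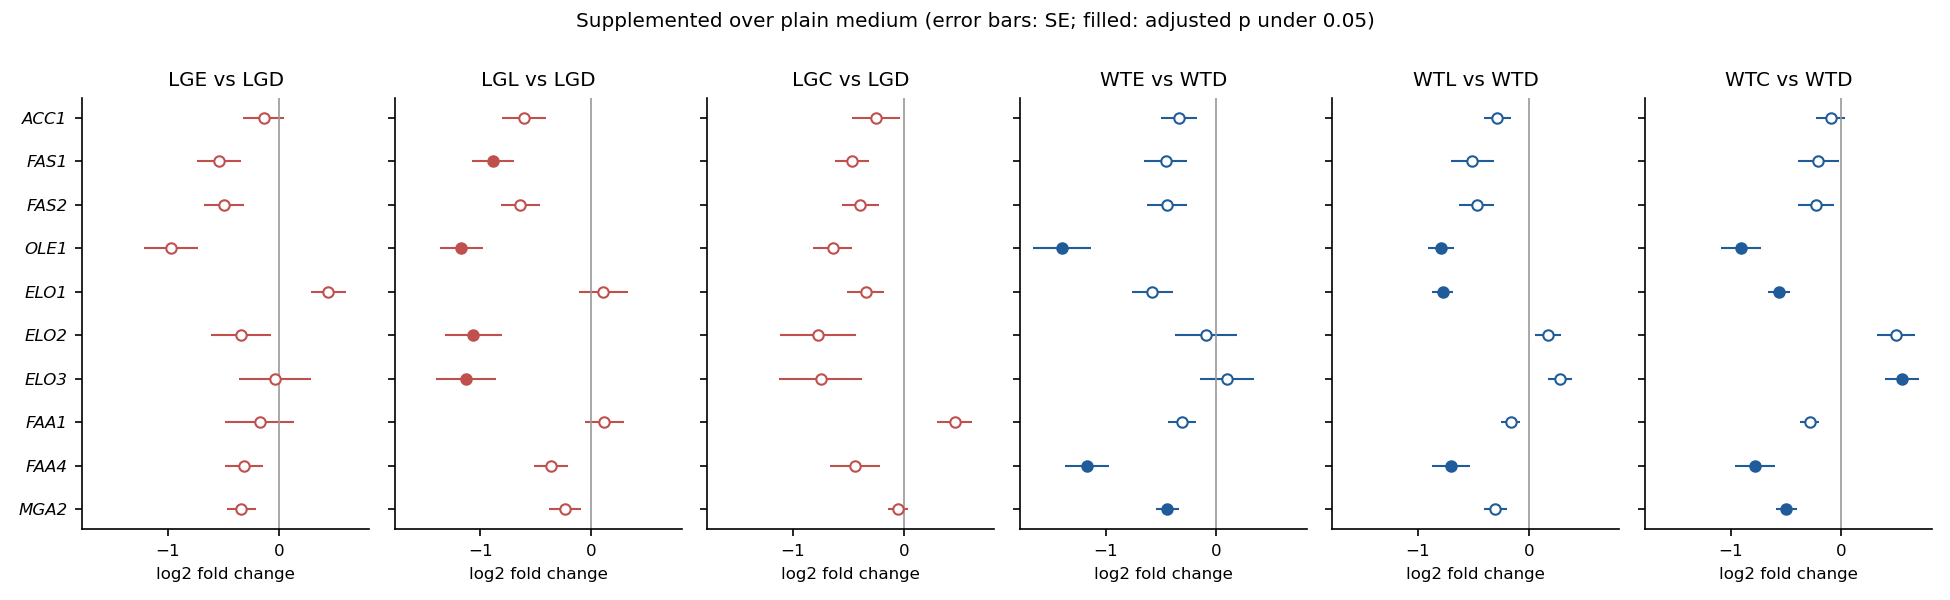
Log2 fold change (x axis) of each gene (rows) in the supplemented over the plain medium, for LG (red, 3 left panels) and WT (blue, 3 right panels). Bars are SE and filled points have an adjusted p under 0.05; OLE1 lies left of 0 in all 6 panels, while ELO2 and ELO3 lie left of 0 in LGL and right of 0 in WTL.

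Between strains, 2 of 10 genes were called in LGD vs WTD, both lower (ELO1 and FAA1), where 36.8% of all genes were called. In LGE vs WTE 0 of 10 were called (0.836% of all genes), with 1 at an unadjusted p under 0.05 and 1 called by DESeq2 (FAA4), which called 8.13% of all genes. In LGL vs WTL 0 of 10 were called (1.52% of all genes), with 3 at an unadjusted p under 0.05, the same number called by DESeq2, which called 13.2% of all genes. With the replicate block, picked by how these same libraries deviate, those 3 (ELO2, ELO3 and ACC1, all lower in LGL) were called, and 20.1% of all genes. In LGC vs WTC ELO1 was lower and MGA2 higher, 2 of 10, where 16.6% of all genes were called. The block, picked here too by how these same libraries deviate (correlations of 0.1245 to 0.2011), added ELO2 and ELO3 as lower. It gave 4 of 10, with 20.9% of all genes called. The 2 calls of LGD vs WTD became 1 without any library but LGD replicate 3 (17.4% to 25.3% of all genes called). Without that one they became 5, where OLE1, ELO2 and ELO3 joined as higher and 58.0% of all genes were called. That fit keeps only the nearly coinciding replicates 1 and 2 of LGD, so the added calls are no further support. In LGL vs WTL 1 was called without LGL replicate 3 (ELO3, with 17.7% of all genes called) and 1 without WTL replicate 3 (ELO2, with 5.71%), both lower. The calls of LGC vs WTC became 0 without replicate 1 or 2 of either group and 3 without WTC replicate 3, where FAS1 joined as lower and 20.9% of all genes were called.

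**Figure D3:**
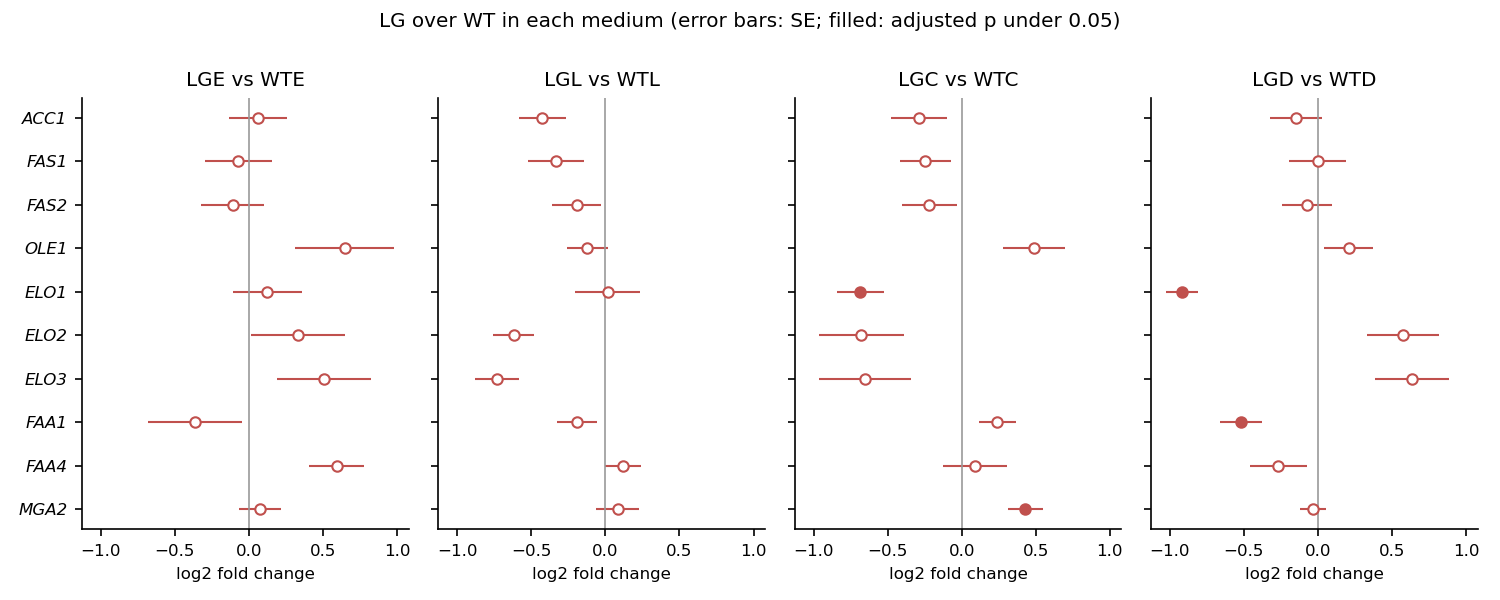
Log2 fold change (x axis) of LG over WT for each gene (rows) in ethanolamine, lyso-PE with tergitol, choline and plain medium (panels). Bars are SE and filled points have an adjusted p under 0.05; the 4 filled points are ELO1 and MGA2 in choline and ELO1 and FAA1 in plain medium.

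OLE1, the desaturase gene (chromosome VII, 398628-400160), had a lower level in each of the 18 supplemented libraries than in any of the 6 plain-medium ones. In LG it had 1103, 1127 and 692.9 CPM with ethanolamine, 843, 796.4 and 930.4 CPM with lyso-PE, and 1188, 1160 and 1355 CPM with choline, against 2127, 2109 and 1552 CPM in plain medium. In WT it had 474.1, 478.3 and 900 CPM with ethanolamine, 904.6, 909.4 and 1014 CPM with lyso-PE, and 982.2, 981.4 and 628.7 CPM with choline, against 1574, 1587 and 1776 CPM in plain medium. The plain-medium groups thus stood highest, LGD before WTD, and overlapped each other. LGC came next at 1234 ± 105 CPM, without overlap with LGE (974.1 ± 244 CPM), and from LGE down to WTE (617.5 ± 245 CPM) each group overlapped the next.

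The fall of OLE1 was called in 4 of the 6 supplement comparisons. The largest was WTE vs WTD, at -1.39 ± 0.26 (adjusted p 0.00817), which stayed called in all 6 fits that each left out 1 library. LGL vs LGD gave -1.17 ± 0.19 (adjusted p 0.0198), WTC vs WTD -0.91 ± 0.18 (0.0154) and WTL vs WTD -0.80 ± 0.12 (0.0104). These 3 calls were lost without LGD or LGL replicate 1 or 2 (adjusted p up to 0.1215), without WTD replicate 1 or 2 (up to 0.05762), and without WTD or WTL replicate 1 or 2 (up to 0.06372). In LGE vs LGD the change was -0.97 ± 0.25 with an adjusted p of 0.264, and 0.01213 by DESeq2. In LGC vs LGD it was -0.64 ± 0.18 with an adjusted p of 0.254, called with the replicate block (0.03848), by DESeq2 (0.01352) and without LGD replicate 3 (0.04402). OLE1 was not called between strains in any medium with all libraries in the fit (LGD vs WTD was called without LGD replicate 3, adjusted p 0.01214), and neither were the differences between the strains' responses (interaction adjusted p 0.552 for ethanolamine, 0.252 for lyso-PE and 0.514 for choline). A missed threshold does not show that the strains respond alike.

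The synthesis genes had 1 call among them, FAS1 in LGL vs LGD. ACC1, the carboxylase gene (chromosome XIV, 654673-661374), had 965.1, 838.9 and 737.3 CPM in LGL, against 1357, 1474 and 1036 CPM in LGD. These groups did not overlap, and the change of -0.61 ± 0.20 was not called (adjusted p 0.0825, 0.01928 by DESeq2 and 0.01532 without LGD replicate 3). Against WTL, with 1181, 1194 and 1080 CPM, LGL was also without overlap, and the change of -0.43 ± 0.16 (adjusted p 0.162) was called only with the replicate block (0.03002) and by DESeq2 (0.04497). The other 6 groups of ACC1 had means between 1081 CPM (LGC) and 1408 CPM (WTD), each overlapping the next in order.

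FAS1 (chromosome XI, 100671-106826) encodes the beta subunit of the fatty acid synthase and FAS2 (chromosome XVI, 108652-114315) the alpha subunit. FAS1 had 1237, 1125 and 966.2 CPM in LGL, against 2158, 2246 and 1752 CPM in LGD. It fell by 0.89 ± 0.19 (adjusted p 0.0298), a call lost without replicate 1 or 2 of either group (adjusted p up to 0.1478). FAS2 had 1468, 1342 and 1168 CPM in LGL, against 1928, 1981 and 2282 CPM in LGD, and its change of -0.64 ± 0.18 just missed the threshold (adjusted p 0.0541, 0.001708 by DESeq2 and 0.03007 without LGD replicate 3). Neither gene's groups overlapped there. In WTE vs WTD the changes of FAS1 (-0.46 ± 0.19, adjusted p 0.122) and FAS2 (-0.45 ± 0.18, 0.106) were called with the replicate block (0.04028 and 0.04571), by DESeq2 (0.02953 and 0.01401) and without WTE replicate 3 (0.02604 and 0.02359). The block also called both in LGC vs LGD, at -0.47 ± 0.15 for FAS1 (adjusted p 0.276, blocked 0.02304) and -0.39 ± 0.17 for FAS2 (0.35, blocked 0.02343). Between strains neither was called in any medium with all libraries in the fit, and in plain medium FAS1 averaged 2052 ± 264 CPM in LGD, against 2025 ± 425 CPM in WTD.

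The ratio of FAS2 to FAS1 on the FPKM scale had a median of 1.15 over the 24 libraries, the lowest being 0.959 in LGD replicate 2 and the highest 1.42 in LGD replicate 3. Across the 8 group means of log2 CPM the 2 subunits had a Pearson r of 0.982, and ACC1 had 0.905 with FAS1. These correlations describe 8 points that share libraries and scaling.

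The elongase genes differed in where they were called. ELO1 (chromosome X, 67850-68782), for medium-length chains, had its highest level in WTD, with 325, 329.6 and 351.8 CPM, above every other library of the series. LGD had 191.7, 189.3 and 160.4 CPM, which is lower by 0.92 ± 0.11 on the log2 scale (adjusted p 0.00209), and the call held in all 6 fits without 1 library. It was also lower in LGC, with 156, 157.5 and 112 CPM, than in WTC, with 237.7, 233.3 and 199.8 CPM, at -0.68 ± 0.16 (adjusted p 0.0312, lost without replicate 1 or 2 of either group, up to 0.1255). With ethanolamine and with lyso-PE the strains overlapped. ELO1 had 243.4 ± 37 CPM in LGE and 221.6 ± 63 CPM in WTE, and 194.8 ± 55.7 CPM in LGL and 195.1 ± 17 CPM in WTL.

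Within WT, ELO1 was lower in lyso-PE by 0.78 ± 0.10 (adjusted p 0.00635) and in choline by 0.56 ± 0.10 (0.00939), both called in all 6 fits without 1 library. In ethanolamine, WTE replicates 1, 2 and 3 had 185.8, 184.6 and 294.3 CPM, all under the WTD libraries, and the change of -0.58 ± 0.18 was called only with the replicate block (adjusted p 0.0547, blocked 0.007463), without WTE replicate 3 (0.0002331) and by DESeq2 (0.01559). Within LG no supplement gave a call for ELO1 in the unblocked fit (LGC vs LGD blocked, adjusted p 0.02313, lower), and LGE, with 262.1, 267.4 and 200.8 CPM, lay above LGD without overlap. The response of ELO1 to a supplement differed between strains by 1.04 ± 0.26 for ethanolamine (adjusted p 0.0448) and by 0.90 ± 0.26 for lyso-PE with tergitol (0.0271), each change being more positive in LG than in WT. In these interactions 5.3% and 25.2% of all genes were called. The ethanolamine call was lost in 10 of 12 fits without 1 library (adjusted p up to 0.1355 without WTE replicate 2), all but those without LGE or WTE replicate 3, and the lyso-PE call without LGL replicate 1, LGL replicate 2 or WTL replicate 3 (up to 0.0668).

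ELO2 (chromosome III, 190592-191635, FEN1 in the deposited tables) and ELO3 (chromosome XII, 867354-868391, SUR4 there), the elongases of very long chains, had similar profiles. Their group means had a Pearson r of 0.955 over 8 groups. ELO2 had 196.5, 172.6 and 160.8 CPM in LGL, against 431.4, 443.2 and 233.5 CPM in LGD, and fell by 1.06 ± 0.25 (adjusted p 0.0387). ELO3 had 238.3, 210.7 and 285.4 CPM in LGL, against 640, 628.5 and 337 CPM in LGD, and fell by 1.13 ± 0.27 (0.0381). LGD replicate 3 stood well below the other LGD libraries for both genes, though above all LGL libraries. ELO2's call remained only without LGD replicate 3, ELO3's only without LGD replicate 3 or LGL replicate 3, and the other leave-out fits reached 0.1579 and 0.1636.

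In WT the same supplement gave no call for either gene in edgeR's test with all libraries: ELO2 had 293.4, 295.2 and 236.2 CPM in WTL, against 247.1, 223.5 and 261.9 CPM in WTD. ELO3 had 399, 400.8 and 433 CPM in WTL, against 332.4, 314.8 and 371.9 CPM in WTD, without overlap, and DESeq2 called it higher in WTL (adjusted p 0.04602). ELO2 was called higher there without WTL replicate 3 (0.04575). The difference between the strains' responses to lyso-PE with tergitol was -1.23 ± 0.30 for ELO2 (adjusted p 0.0135) and -1.40 ± 0.31 for ELO3 (0.00836). Both interactions were called in all 12 fits that each left out 1 library, with the block and by DESeq2, but not with replicates 1 and 2 summed (0.2576 and 0.2281). The changes between strains that enter these terms were as follows. In lyso-PE the changes of LGL vs WTL were -0.62 ± 0.14 for ELO2 and -0.73 ± 0.15 for ELO3 (adjusted p 0.0728 and 0.0569, blocked 0.008751 and 0.0068, by DESeq2 0.003366 and 0.0001096). In plain medium those of LGD vs WTD were 0.58 ± 0.24 and 0.63 ± 0.25 (0.106 and 0.086), and they were called only without LGD replicate 3 (0.0001603 and 0.0001455) and, for ELO3, by DESeq2 (0.03887).

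With choline, ELO2 and ELO3 were called in LG in the blocked fit and ELO3 in WT in the unblocked one. In LGC vs LGD the changes were -0.77 ± 0.34 for ELO2 and -0.75 ± 0.38 for ELO3 (adjusted p 0.356 and 0.392), called with the replicate block (0.005688 and 0.006217). LGC replicate 3, at 135.3 CPM for ELO2 and 179.3 CPM for ELO3, and LGD replicate 3 were the lowest of their groups. In WTC ELO3 had 539.9, 542.9 and 381.9 CPM and was higher than in WTD, by 0.55 ± 0.15 (adjusted p 0.0433), a call that remained only without WTC replicate 3 (up to 0.1574 in the other 5 fits). In LGC vs WTC the changes were -0.68 ± 0.29 for ELO2 and -0.65 ± 0.31 for ELO3 (0.147 and 0.187, blocked 0.01647 and 0.03824). The interaction with choline was -1.25 ± 0.41 for ELO2 and -1.29 ± 0.43 for ELO3 and not called (0.118 and 0.121); in it 0 of 10 genes and 0.863% of all genes were called, with 4 of 10 at an unadjusted p under 0.05 and 4 called by DESeq2 (11.7% of all genes), and 4 called without LGD replicate 3 (23.5%).

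The acyl-CoA synthetase genes were called in different comparisons. FAA4 (chromosome XIII, 759807-761891) was lower in every supplement within WT. It had 326.5, 320.1 and 424 CPM in WTE, 500.6, 493 and 498.6 CPM in WTL and 482.9, 504.8 and 408.8 CPM in WTC, against 703.4, 695.3 and 1043 CPM in WTD. None of the supplemented libraries reached the WTD range, within which replicate 3 stood far above the other 2. The changes were -1.17 ± 0.20 (adjusted p 0.00546) in ethanolamine, -0.70 ± 0.17 (0.0428) in lyso-PE and -0.78 ± 0.18 (0.023) in choline. The first held in all 6 fits without 1 library, the second was lost without replicate 1 or 2 of either group (up to 0.1164) and the third without WTD replicate 1, WTC replicate 1 or WTC replicate 2 (up to 0.06804).

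In LG, FAA4 had 544.1 ± 71.7 CPM with ethanolamine, 533.4 ± 22.6 CPM with lyso-PE and 505.2 ± 132 CPM with choline, against 686.2 ± 75.5 CPM in plain medium. None of these was called in the unblocked fit, and the replicate block called the change in LGC vs LGD (adjusted p 0.4, blocked 0.03425). In ethanolamine the strains did not overlap for FAA4, with LGE higher by 0.59 ± 0.19, which was not called (adjusted p 0.173, and 0.03713 by DESeq2).

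FAA1 (chromosome XV, 909343-911445), the other main synthetase gene, was lower in LGD, with 280.9, 289.6 and 379.8 CPM, than in WTD, with 443, 438.1 and 460.4 CPM. The change of -0.52 ± 0.14 (adjusted p 0.0269) was called in 1 of the 6 fits without 1 library, that without LGD replicate 3 (0.0001753), and reached 0.1004 in the other 5. Within LG, FAA1 had 409.3, 405.2 and 487.9 CPM in LGC, above all LGD libraries, and this change of 0.46 ± 0.16 was called only with the replicate block (adjusted p 0.296, blocked 0.01094). LGE replicate 3, at 153.7 CPM, was the lowest FAA1 library of the series, under the other LGE libraries at 345 and 336.4 CPM. In WT, FAA1 had 356 ± 45.7 CPM in WTE, 397.4 ± 5.5 CPM in WTL and 360.8 ± 7.53 CPM in WTC, against 447.2 ± 11.7 CPM in WTD, and none was called in the unblocked fit. The change in WTE vs WTD (-0.31, adjusted p 0.111) was called with the block (0.04774), by DESeq2 (0.04636) and without WTE replicate 3 (0.004167), and that in WTC vs WTD by DESeq2 (0.0004525), with DESeq2's size factors (0.04875) and without WTC replicate 3 (0.01419).

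MGA2 (chromosome IX, 416124-419465), which encodes the membrane-bound activator of OLE1, spanned the narrowest range of the 10. In WT it had 103.5, 103.4 and 84.77 CPM with ethanolamine, 98.96, 105.8 and 118.7 CPM with lyso-PE and 87.01, 87.52 and 104.8 CPM with choline, against 125.8, 133.8 and 141.6 CPM in plain medium. It fell by 0.44 ± 0.10 in ethanolamine (adjusted p 0.0177) and by 0.50 ± 0.10 in choline (0.0135), and the lyso-PE change was not called (adjusted p 0.102). The first call was lost without WTD replicate 2 or 3 (up to 0.06778), the second without WTD replicate 2, WTC replicate 1 or WTC replicate 2 (up to 0.06421). In LG no supplement gave a call, with 103.4 ± 11.4 CPM in LGE, 112.9 ± 16.8 CPM in LGL, 127.8 ± 7.64 CPM in LGC and 132.7 ± 2.67 CPM in LGD.

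Between strains MGA2 was higher in LGC, with 123.8, 123 and 136.6 CPM, than in WTC, by 0.43 ± 0.12 (adjusted p 0.0483). This call was lost without replicate 1 or 2 of either group (up to 0.2054) and with DESeq2's size factors (0.05115). In plain medium the strains overlapped, with 132.7 ± 2.67 CPM in LGD, against 133.7 ± 7.86 CPM in WTD. Over the 8 group means MGA2 had a Pearson r of 0.885 with OLE1, and FAA4 had 0.894 with OLE1.

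The genes most like 3 of the members across the 8 group means were taken from 5798 genes with a mean of at least 50 counts. For OLE1 they were CDC10, which encodes a septin (Pearson r 0.946), UGA4, a permease for gamma-aminobutyrate (0.945), and SSP120 (0.935). For FAS1 they were FAS2 (0.982), ECM7 (0.968) and YOL107W (0.96). For ELO1 they were the small nucleolar RNA snR86 (0.972), YLR456W (0.953) and YOR008W-B (0.942). With 8 points and 5798 candidates these are descriptions.

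The wider pathway was read from a list of 48 other genes of fatty acid metabolism in 6 groups, all of which were tested. In LGD vs WTD 14 of the 48 were called, 5 higher and 9 lower, where 36.8% of all genes were called. Their median change was -0.16, against 0.01 over all genes. Leaving out WTD replicate 1 gave 9 (17.4% of all genes) and leaving out LGD replicate 3 gave 28 (58.0%). The count was 0 with replicates 1 and 2 summed (1.53%). Over the 10 pairwise comparisons the 48 genes had 45 calls, and the share of all genes called ran from 0.0% (LGC vs LGD) to 36.8% (LGD vs WTD). Of the 45 calls, 14 held in all 6 fits that each left out 1 library and 1 held with replicates 1 and 2 summed (CYB5 in WTE vs WTD). Those of LGD vs WTD that were lost in such a fit were PXA2, ECI1, RSP5, SPT23 and POT1.

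Among the 4 genes listed for electron transfer in desaturation (CYB5, NCP1, CBR1 and MCR1), the larger changes went opposite ways. Whether these genes supply Ole1 with electrons was not tested. CYB5, which encodes a cytochrome b5, averaged 170.4 ± 54.6 CPM in LGD, against 50.06 ± 2.42 CPM in WTD, higher by 1.75 ± 0.25 (adjusted p 0.00335). MCR1, the mitochondrial cytochrome b5 reductase gene, averaged 380.5 ± 102 CPM in LGD, against 957.1 ± 24.1 CPM in WTD, at a log2 fold change of -1.35 ± 0.19 (adjusted p 0.00363). In LG with lyso-PE CYB5 was lower than in plain medium (71.27 ± 7.07 CPM in LGL, -1.26 ± 0.25, adjusted p 0.0273) and MCR1 higher (809.8 ± 237 CPM in LGL, 1.09 ± 0.29, 0.048), both calls being lost without replicate 1 or 2 of either group (adjusted p up to 0.128 and 0.186). In WT, CYB5 was higher than in WTD with every supplement: 97.46 ± 9.1 CPM in WTE (0.98 ± 0.09, 0.000515), 84.43 ± 5.75 CPM in WTL (0.76 ± 0.09, 0.00618) and 95.13 ± 23.7 CPM in WTC (0.95 ± 0.18, 0.0115), called in 6, 5 and 5 of the 6 fits without 1 library. OLE1 was lower in the same 3 comparisons, and a link between the 2 genes was not tested. The strains' responses to lyso-PE with tergitol differed by -2.01 ± 0.29 for CYB5 (adjusted p 0.0019) and by 1.63 ± 0.37 for MCR1 (0.0099).

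**Figure D4:**
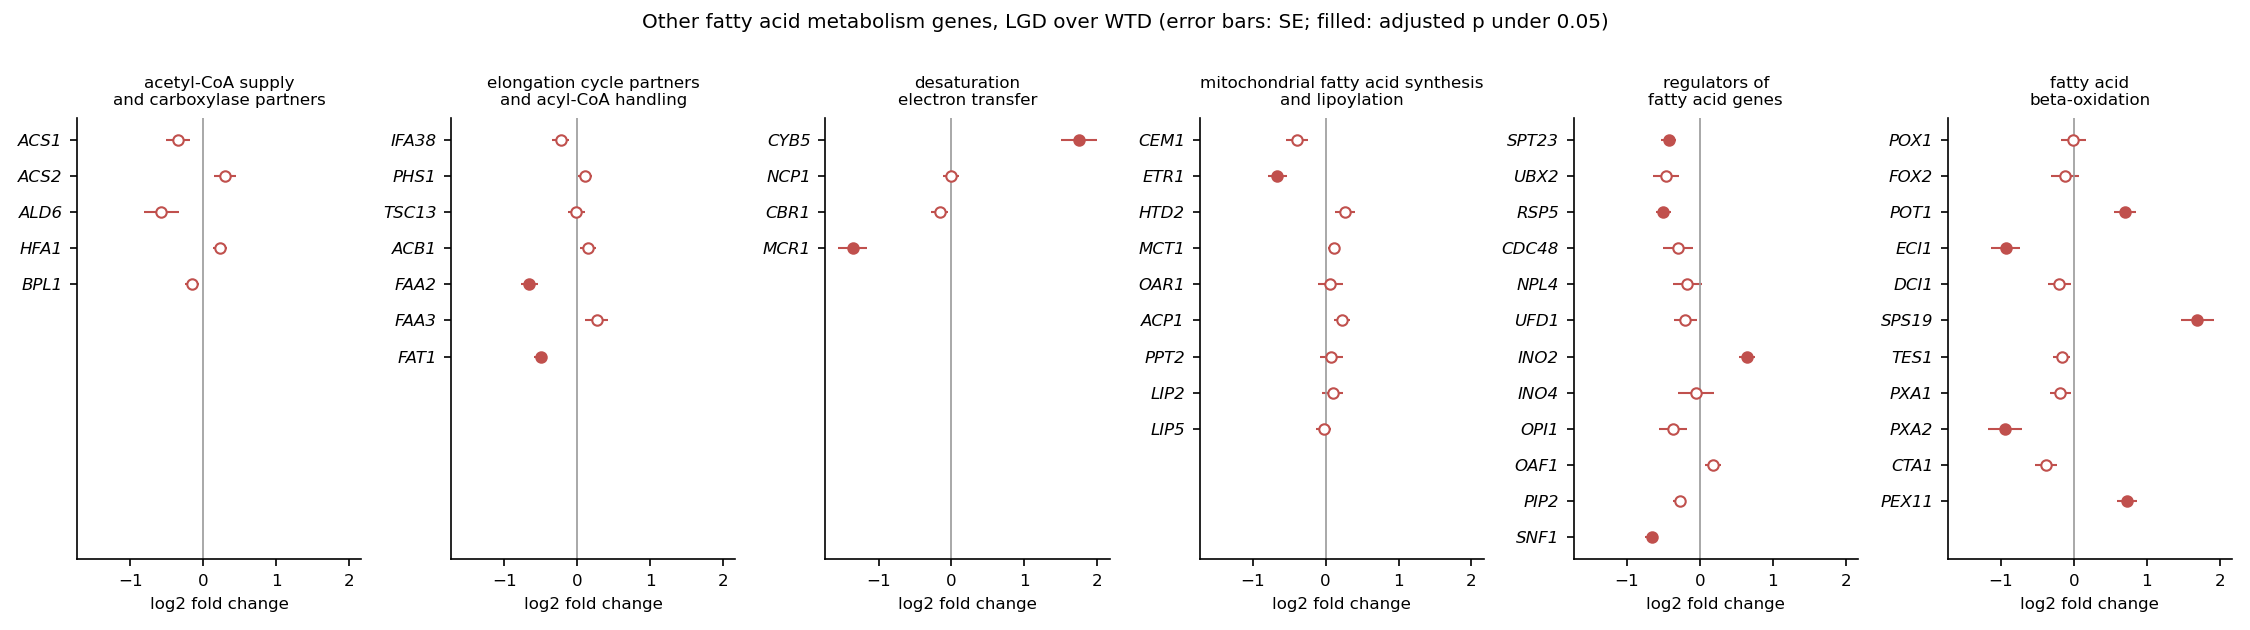
Log2 fold change (x axis) of LGD over WTD for the 48 other fatty acid genes, 1 panel per group. Bars are SE and filled points have an adjusted p under 0.05; CYB5 at 1.75 and SPS19 at 1.69 are the points farthest right and MCR1 at -1.35 the one farthest left.

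Of 12 regulators, 1 was higher and 3 lower in LGD than in WTD. INO2, the activator that binds UASINO, averaged 32.53 ± 3.03 CPM in LGD, against 20.43 ± 1.5 CPM in WTD (0.65 ± 0.11, adjusted p 0.00654). The 3 lower ones were SNF1 (-0.66 ± 0.09, adjusted p 0.0034), the kinase that phosphorylates Acc1, RSP5 (-0.50 ± 0.10, 0.0114), the ubiquitin ligase for Mga2 and Spt23, and SPT23 itself (-0.42 ± 0.10, 0.0199), the partner of Mga2. Of 11 beta-oxidation genes, which break fatty acids down in peroxisomes, 3 were higher and 2 lower, all but PEX11 at low levels. SPS19 averaged 20.87 ± 0.774 CPM in LGD, against 6.356 ± 1.86 CPM in WTD (1.69 ± 0.22, adjusted p 0.00265), PEX11 rose by 0.73 ± 0.14 (0.0084) and POT1 by 0.70 ± 0.15 (0.0136). PXA2 fell by 0.94 ± 0.23 (0.0209) and ECI1 by 0.93 ± 0.20 (0.0123). SPS19 overlaps YNL203C in the tables, and without a stated strandedness its reads could come from either.

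The remaining groups had few calls in LGD vs WTD. Of 7 genes of the elongation cycle and acyl-CoA handling, 0 were higher and 2 lower, FAA2 (-0.66 ± 0.12, adjusted p 0.00705), an acyl-CoA synthetase gene, and FAT1 (-0.50 ± 0.09, 0.0073), a fatty acid transporter gene. The elongation cycle genes proper, IFA38, PHS1 and TSC13, were not called. Of 9 genes of mitochondrial fatty acid synthesis and lipoylation, ETR1, its enoyl reductase gene, was lower (-0.66 ± 0.13, 0.00854). None of 5 genes of acetyl-CoA supply and carboxylase partners was called.

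In the other comparisons fewer of the 48 were called, and leaving out 1 library took the count to 0 to 15 in LGL vs LGD, 2 to 25 in WTE vs WTD, 0 to 10 in WTL vs WTD and 0 to 10 in WTC vs WTD, the highest each time without replicate 3 of LGD, WTE, WTL or WTC. Of all genes these fits called 0.016% to 33.2%, 10.6% to 43.1%, 1.6% to 29.1% and 6.51% to 30.6%, in the same order. With the replicate block 15 were called in LGC vs LGD (24.6% of all genes), 19 in WTE vs WTD (33.6%) and 13 in LGL vs WTL (20.1%). With supplements 0 of the 48 were called in LGE vs LGD (0.225% of all genes) and 0 in LGC vs LGD (0.0%). There 4 and 9 had an unadjusted p under 0.05, and DESeq2 called 2 and 6 (2.84% and 5.37% of all genes). In LGL vs LGD 2 were higher and 2 lower (13.3% of all genes), and in WTE vs WTD 4 were higher and 6 lower (22.6%). In WTL vs WTD 3 were higher (12.7%), and in WTC vs WTD 2 were higher and 3 lower (19.1%). ECI1 was higher in LGL vs LGD beside MCR1 (1.14 ± 0.21, adjusted p 0.0229), and ACS2, the nucleocytosolic acetyl-CoA synthetase gene, was lower beside CYB5 (-0.70 ± 0.17, 0.0422), calls that held in 2 and 1 of the 6 fits without 1 library. In WTE vs WTD OAR1 was higher beside CYB5 (0.56 ± 0.16, 0.0372), and ACS1 (-0.59 ± 0.14, 0.0216) and PXA2 (-0.53 ± 0.11, 0.0114) were lower, and these calls held in 1, 2 and 5 of 6 such fits. FAA3 was higher in WTL vs WTD (0.53 ± 0.09, 0.0162), in 3 of 6 such fits. In WTC vs WTD HFA1, the mitochondrial acetyl-CoA carboxylase gene, was higher (0.31 ± 0.08, 0.0374), and MCR1 (-0.49 ± 0.11, 0.0249) and FAA2 (-0.42 ± 0.08, 0.0118) were lower. The HFA1 call was lost in all 6 fits without 1 library (adjusted p up to 0.147), and those of MCR1 and FAA2 held in 2 and 4 of them.

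Between strains, 0 of the 48 were called in LGE vs WTE (0.836% of all genes), with 7 at an unadjusted p under 0.05 and 2 called by DESeq2 (8.13%). In LGL vs WTL 1 was called, where 1.52% of all genes were. The 1 was ALD6, the cytosolic aldehyde dehydrogenase gene of acetate supply, with 233.1 ± 101 CPM in LGL and 867.4 ± 95.4 CPM in WTL (-1.88 ± 0.30, adjusted p 0.0452, lost without replicate 1 or 2 of either group, up to 0.262). In LGC vs WTC 4 were higher and 4 lower, where 16.6% of all genes were called. With 1 library left out 3 to 17 were called (the ends without LGC replicate 1 and without LGC replicate 3, with 5.42% and 36.2% of all genes). SPS19 (1.88 ± 0.18, 0.00275) and POT1 (1.43 ± 0.20, 0.00701) had the largest rises, and DCI1 (-0.71 ± 0.17, 0.0381) and FAT1 (-0.55 ± 0.09, 0.0113) the largest falls. The calls of SPS19 and POT1 held in all 6 fits without 1 library, those of DCI1 and FAT1 in 1 and 2. INO2 was higher there too, with 54.6 ± 4.8 CPM in LGC and 20.92 ± 3.82 CPM in WTC. The strains' responses differed for 1 of the 48 with ethanolamine (SNF1, 0.95 ± 0.15, adjusted p 0.00697), where 5.3% of all genes were called. With lyso-PE they differed for 10 (6 higher, 4 lower), where 25.2% of all genes were called. With choline they differed for 0 (0.863% of all genes), with 10 at an unadjusted p under 0.05 and 5 called by DESeq2 (11.7%). Beside MCR1 and CYB5, the named lyso-PE terms were ALD6 (-1.34 ± 0.40, 0.0314) and PXA2 (1.07 ± 0.29, 0.0212), called in 5 and 10 of the 12 fits without 1 library.

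The authors' deposited tables cover 7 of the 10 pairwise comparisons. They give the same sign as the fits here for 10 of 10 genes in each. Both rest on the same counts, so the shared signs are no separate evidence. The deposited tables call 3 of the 10 genes in LGD vs WTD, 1 in LGE vs LGD, 6 in LGL vs LGD, 2 in LGC vs LGD, 7 in WTE vs WTD, 4 in WTL vs WTD and 7 in WTC vs WTD at an adjusted p under 0.05. The share of all genes that those tables call was not counted here, so these counts have no background to be read against.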

How the data were processed

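RNA was extracted with hot phenol from 24 samples in 8 groups of 3 and made into Illumina libraries, per the labels' protocols. The 7 deposited tables give whole-number read counts per gene, per the file headers, and these alone entered the tests. They also hold FPKM values made by the authors, used here only to compare levels between genes, and a signal that is the deposited counts divided by a size factor per library, not used here. Log2 fold changes and p-values in the authors' deposited tables were copied only where named. The submitters' processing notes list CASAVA, STAR 2.5, HTSeq 0.6.1 and DESeq2; genome build, annotation and strandedness are not given in the sources used here. Tables joined by identifier had 0 differing counts where they share libraries, and 6433 of 6814 genes are in all 7. Of the identifiers, 5924 are in the R64 gene table, 5915 with the same start and end.

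Each pairwise comparison was fitted on its 6 libraries and each interaction on its 12 with edgeR 4.0.16 (glmQLFit, glmQLFTest; limma 3.58.1) in R 4.3.3, with TMM scaling, filterByExpr and Benjamini-Hochberg adjustment over all genes tested. The SE was the log2 fold change divided by the square root of F. CPM used TMM-scaled totals of all 24 libraries. Likeness used log2 CPM with a prior count of 2. Tests were checked on simulated counts, in which every library was drawn independently. No replicates coincide there as replicates 1 and 2 do here, so the check says nothing of that feature. Alternatives were DESeq2 1.42.0's size factors and its Wald test, no filter, all 24 libraries in one fit, replicates 1 and 2 summed, the replicate number as a block, and leaving out each library.

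Replicate numbers come from the labels, which name no shared day or batch. The log2 deviations from group means, compared between libraries with the same number, had correlations of -0.5365 to 0.6409 over the 10 pairwise comparisons. In 4 of them (LGL vs WTL, LGC vs WTC, LGC vs LGD and WTE vs WTD) all 3 exceeded 0.1, and there blocked values stand beside results whose call they change. Since replicates 1 and 2 nearly coincide, the 3 correlations mostly reflect how replicate 3 differs. A block picked from these same deviations gives no independent support for the calls it adds.

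The 10 genes and the list of 48 were chosen with earlier results of these data known. Named by rule were the 10 genes, PSD1, the 3 genes most like OLE1, FAS1 and ELO1, and, of the 48, those called with the largest changes: up to 3 per direction and group in LGD vs WTD and up to 2 per direction elsewhere. INO2 in choline, outside that rule, was named after its values were seen.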

Additional observations from a re-analysis of the deposited data

Results flagged for a closer look

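Responses that differed between the strains by a test of the difference itself were called for 3 of the 10 genes with lyso-PE, where 25.2% of all genes were called, and for 1 with ethanolamine, where 5.3% were. The lyso-PE count is near the share over all genes, and none of these terms was called with replicates 1 and 2 summed. With lyso-PE and tergitol the LG response minus the WT response was -1.398 on the log2 scale for ELO3 and -1.231 for ELO2, whose libraries in LGL lay below those in LGD without overlap. For ELO1 the same difference was 0.898, and with ethanolamine it was 1.036, its level in WTD standing above all other libraries. The ethanolamine term of ELO1 was called in only 2 of 12 fits that each left out 1 library.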

How the results depend on the processing

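The number of the 10 genes called depended on the fit. With replicates 1 and 2 summed it was 0 in all 13 comparisons. With the replicate block it was 1 in LGD vs WTD, 3 in LGL vs WTL, 4 in LGC vs WTC, 0 in LGL vs LGD, 8 in LGC vs LGD, 7 in WTE vs WTD, 0 in WTL vs WTD, 0 in WTC vs WTD, 0 for the ethanolamine interaction and 3 for the choline interaction. Of all genes it called 20.7%, 20.1%, 20.9%, 0.0%, 24.6%, 33.6%, 0.0163%, 0.946%, 3.04% and 6.88%, in the same order. The block changed no other count of the 10 by over 1.5 times. DESeq2's Wald test called 1 in LGE vs WTE, 3 in LGL vs WTL, 1 in LGE vs LGD, 2 in LGC vs LGD, 7 in WTE vs WTD, 5 in WTL vs WTD, and 2 and 4 for the ethanolamine and choline interactions, where it called 8.13%, 13.2%, 2.84%, 5.37%, 28.4%, 20.9%, 10.6% and 11.7% of all genes, in the same order. One fit of all 24 libraries called 1 in LGD vs WTD (31.3% of all genes), 1 in LGE vs LGD (3.54%) and 2 in WTC vs WTD (1.33%). DESeq2's size factors gave 1 in LGC vs WTC (16.6%), and no filter gave 0 for the ethanolamine interaction (4.79%). Leaving out 1 library gave 1 to 5 in LGD vs WTD, 0 to 1 in LGL vs WTL, 0 to 3 in LGC vs WTC, 0 to 7 in LGL vs LGD, 0 to 1 in LGC vs LGD, 2 to 10 in WTE vs WTD, 1 to 5 in WTL vs WTD, 2 to 7 in WTC vs WTD, and 0 to 1, 2 to 4 and 0 to 4 for the interactions with ethanolamine, lyso-PE and choline. The causes were not tested. Summing leaves 2 libraries a group, and how far that alone lowers the counts was not tested. Counts over all genes moved likewise: with replicates 1 and 2 summed from 2270 to 96 in LGD vs WTD, 1392 to 291 in WTE vs WTD, 1173 to 14 in WTC vs WTD, 52 to 1 in LGE vs WTE, 333 to 2 for the ethanolamine interaction and to 0 in the other 8; with the block from 783 to 1 in WTL vs WTD, 1173 to 58 in WTC vs WTD, 822 to 0 in LGL vs LGD and 14 to 0 in LGE vs LGD. Of 130 log2 fold changes, 55 were followed: those called, blocked-called, at least 0.5 in size, or called with the other sign in another fit. Of their 708 alternative values, 1 reversed. ELO3 in WTE vs WTD, followed only for the last reason, was 0.0957 with all libraries. Without WTE replicate 3 it was -0.2995 (adjusted p 0.02947), in a leave-out range of -0.2995 to 0.2602. The rule favours large changes, and smaller ones outside it crossed 0 too, such as FAS1 in LGD vs WTD (-0.1399 to 0.1804). Other scaling (DESeq2's size factors) kept the direction and side of the threshold of 54 of 55 values. Each gene had at least 1323 counts in every library.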
